A study of Mus musculus with 131 samples.

Results

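The liver-enriched transcription factors are the DNA-binding proteins that together set the gene programme of hepatocytes, the main cells of the liver. The 8 genes followed here are Foxa1, Foxa2 and Foxa3 (forkhead box proteins), Cebpa and Cebpb (CCAAT/enhancer binding proteins), Onecut1 (the protein HNF6) and its relative Onecut2, and Prox1. They were chosen by name and not by a limit on measured values, but with earlier results of these data known. All 8 were found in the expression table of 24397 genes, and all 8 passed a filter on low values (a condition mean of 1 FPKM or more) that left 11166 genes to test. FPKM counts sequenced fragments relative to transcript length and library size, so it is a level per length. Methylation and peaks were taken inside each gene and 5 kb to either side.

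FOXA proteins bind nucleosome-covered enhancers and open them for other factors, and HNF6 often binds beside them. C/EBP alpha and C/EBP beta drive metabolic and acute-phase genes, with C/EBP alpha tied to the resting mature hepatocyte and C/EBP beta to growth and stress responses. DNA methylation at CpG sites of enhancers is usually low where such factors are bound, and the TET enzymes start its removal by oxidising 5-methylcytosine.

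All mice were C57Bl. Hepatocytes came from uninjected wild type (WT) mice of 1, 3 and 15 weeks, and from 15 week mice given an AAV8 virus that carries Cre under the hepatocyte-specific Tbg promoter. These mice were WT (injected controls) or Tet2F/Tet3F, whose Tet2 and Tet3 alleles are floxed (DKO), and the virus was given at 1 day or at 3 weeks. Cells were isolated by collagenase perfusion, Percoll and removal of CD45 positive cells. Expression was read in 18 libraries, 1 of 1 week, 3 each of 3 week WT, 15 week WT, both controls and DKO injected at 1 day, and 2 of DKO injected at 3 weeks. Reduced representation bisulfite sequencing (RRBS) covered 18 samples. They were 2 of 3 week WT, 3 of each control, 2 of each DKO and 2 labelled insulin receptor knockout (InsR KO). The others were 2 hepatocyte cultures labelled 1 week, 1 of WT neutrophils of 36 weeks and 1 of WT fat of 25 weeks. By the authors' account, InsR KO mice carried a floxed insulin receptor and received the same virus right after birth. Only their hepatocytes were defective for the receptor, and they were compared with WT mice at 15 to 20 weeks. The InsR KO labels give no age. The cultures, by the same account, were newborn liver cells grown for several weeks. Most of the RRBS samples were tied to a condition by an animal number that the expression table shares, a link that rests on the numbers alone. Whole genome bisulfite sequencing (WGBS) had 1 library each of newborn WT (labelled 1 week), adult WT (15 weeks, not injected) and DKO (15 weeks, injected at 1 day). Peaks of the enhancer marks H3K27ac and H3K4me1 had 1 WT and 1 DKO library each, of 15 weeks with DKO injected at 1 day, open chromatin (ATAC-Seq) and HNF6 ChIP-Seq had 2 WT and 2 DKO libraries labelled liver with no age, and 5-hydroxymethylcytosine (5hmC) had 1 WT library of 20 days.

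Tet2 was at 2.82 to 4.08 FPKM in the 3 libraries labelled DKO injected at 1 day and at 0.89 to 2.13 in their controls, which is higher and not lower (log2 difference 0.79, SE 0.20, limma adjusted p = 0.017), and Tet3 did not pass the test (0.12, SE 0.15, adjusted p = 0.61). In mice labelled DKO injected at 3 weeks the differences were -0.63 for Tet2 (adjusted p = 0.11) and -0.47 for Tet3 (adjusted p = 0.099). A whole-gene value also counts exons that Cre does not remove, so it does not check the deletion, and DKO is used below as the label. Marker genes of hepatocytes summed to 11154 to 18674 FPKM, while those of leukocytes reached at most 27.8. The abundant hepatocyte gene Alb is listed at 0 in 18 of 18 libraries and Serpina1a in 14. For 15 against 3 weeks the log2 difference of Serpina1a was -11.27 (SE 0.11, limma adjusted p = 3.0e-17), and why was not tested. The hepatocyte sums include Serpina1a, so they do not compare these ages evenly. The 3 week WT libraries and replicate 3 of the controls injected at 3 weeks hold Xist and almost no Y-linked transcripts, the reverse of the others. Age and sex thus cannot be told apart in the comparison of 15 with 3 weeks. The controls injected at 3 weeks are mixed in this respect, while the DKO libraries injected at 3 weeks are not. In a bulk sample, fewer cells of a type and less RNA per cell cannot be told apart either.

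Cebpb was the 1 of the 8 genes that passed the expression test between DKO and controls. In mice labelled DKO injected at 1 day its RNA was lower and DNA 3.4 to 3.6 kb downstream of its start was more methylated. The sequences in which the RRBS difference was read are shown for 3 of the genes at which adjacent 100 bp tiles passed the test. They are the plus strand of NCBIM37 (mm9), with each CG, the site at which methylation is measured, in capitals. The Cebpb stretch is chr2:167517801-167518100, downstream of the gene and inside A530013C23Rik. The Foxa3 stretch is chr7:19599901-19600100, in coding sequence, and the Onecut1 stretch is chr9:74716401-74716700, in an intron 6.7 to 6.9 kb from the start.
Cebpb: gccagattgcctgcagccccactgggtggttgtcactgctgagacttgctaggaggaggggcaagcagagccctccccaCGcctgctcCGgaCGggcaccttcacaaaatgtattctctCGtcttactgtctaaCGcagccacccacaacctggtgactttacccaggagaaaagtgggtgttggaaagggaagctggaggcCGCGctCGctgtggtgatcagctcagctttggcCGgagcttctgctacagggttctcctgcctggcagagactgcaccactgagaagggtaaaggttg
Foxa3: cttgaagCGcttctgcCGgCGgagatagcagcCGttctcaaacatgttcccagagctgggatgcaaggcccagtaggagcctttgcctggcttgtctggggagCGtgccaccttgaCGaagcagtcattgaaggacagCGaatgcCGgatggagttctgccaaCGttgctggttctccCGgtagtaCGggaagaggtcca
Onecut1: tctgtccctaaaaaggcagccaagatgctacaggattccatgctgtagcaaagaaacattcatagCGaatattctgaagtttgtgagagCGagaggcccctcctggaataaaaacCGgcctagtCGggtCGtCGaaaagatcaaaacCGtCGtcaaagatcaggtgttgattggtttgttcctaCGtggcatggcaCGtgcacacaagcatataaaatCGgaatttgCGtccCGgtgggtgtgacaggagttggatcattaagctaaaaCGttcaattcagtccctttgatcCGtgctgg
The Cebpb stretch holds 9 CG, the Foxa3 stretch 11 and the Onecut1 stretch 15.

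HNF6, the product of Onecut1, had peaks at several of these genes, and 4 of the sites found in all 4 HNF6 libraries are shown with the HNF6 motif in capitals, searched as ATCAAT or ATCGAT on either strand. They are 185 bp windows of the plus strand, at Foxa1 (chr12:58638831-58639015, 8.2 kb from the start and downstream of the gene), Foxa2 (chr2:147872856-147873040, upstream, 0.2 kb from the start), Foxa3 (chr7:19603321-19603505, intron, 5.5 kb) and Prox1 (chr1:191954820-191955004, intron, 39.7 kb).
Foxa1: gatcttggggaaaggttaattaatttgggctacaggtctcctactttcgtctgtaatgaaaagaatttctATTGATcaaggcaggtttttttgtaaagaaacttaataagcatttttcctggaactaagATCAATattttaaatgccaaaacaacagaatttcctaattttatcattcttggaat
Foxa2: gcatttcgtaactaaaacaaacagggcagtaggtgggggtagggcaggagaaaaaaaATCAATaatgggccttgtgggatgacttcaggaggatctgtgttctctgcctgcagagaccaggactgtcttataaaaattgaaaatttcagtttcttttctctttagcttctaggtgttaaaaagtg
Foxa3: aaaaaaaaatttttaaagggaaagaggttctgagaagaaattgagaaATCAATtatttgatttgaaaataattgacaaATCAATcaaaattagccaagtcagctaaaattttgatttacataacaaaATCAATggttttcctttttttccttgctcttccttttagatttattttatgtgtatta
Prox1: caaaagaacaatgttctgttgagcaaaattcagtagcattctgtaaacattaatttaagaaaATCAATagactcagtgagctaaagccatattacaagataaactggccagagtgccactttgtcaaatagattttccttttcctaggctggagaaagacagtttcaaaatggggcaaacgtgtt
The Foxa3 window holds the letters 3 times, the Foxa1 window 2 times and the others 1 time each.

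Across the 18 libraries the genes differed in level and in how much they varied. Cebpa lay between 61.3 and 135 FPKM (median 112) and Foxa3 between 10.4 and 23.7 (median 16.8), spans of 2.2-fold and 2.27-fold. Foxa1 (median 4.65), Foxa2 (9.16), Onecut2 (7.13) and Prox1 (13.3) spanned 6.58, 4.95, 3.71 and 5.47-fold. Cebpb spanned 8.91-fold, from 19.1 to 170, and Onecut1 97.9-fold, from 0.472 to 46.2. Much of the Onecut1 span lay between libraries of the same condition: its residual SD on the log2 scale was 1.23, larger than that of 99.6% of tested genes, against 0.14 for Cebpa, larger than that of 19.5%.

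**Figure D1:**
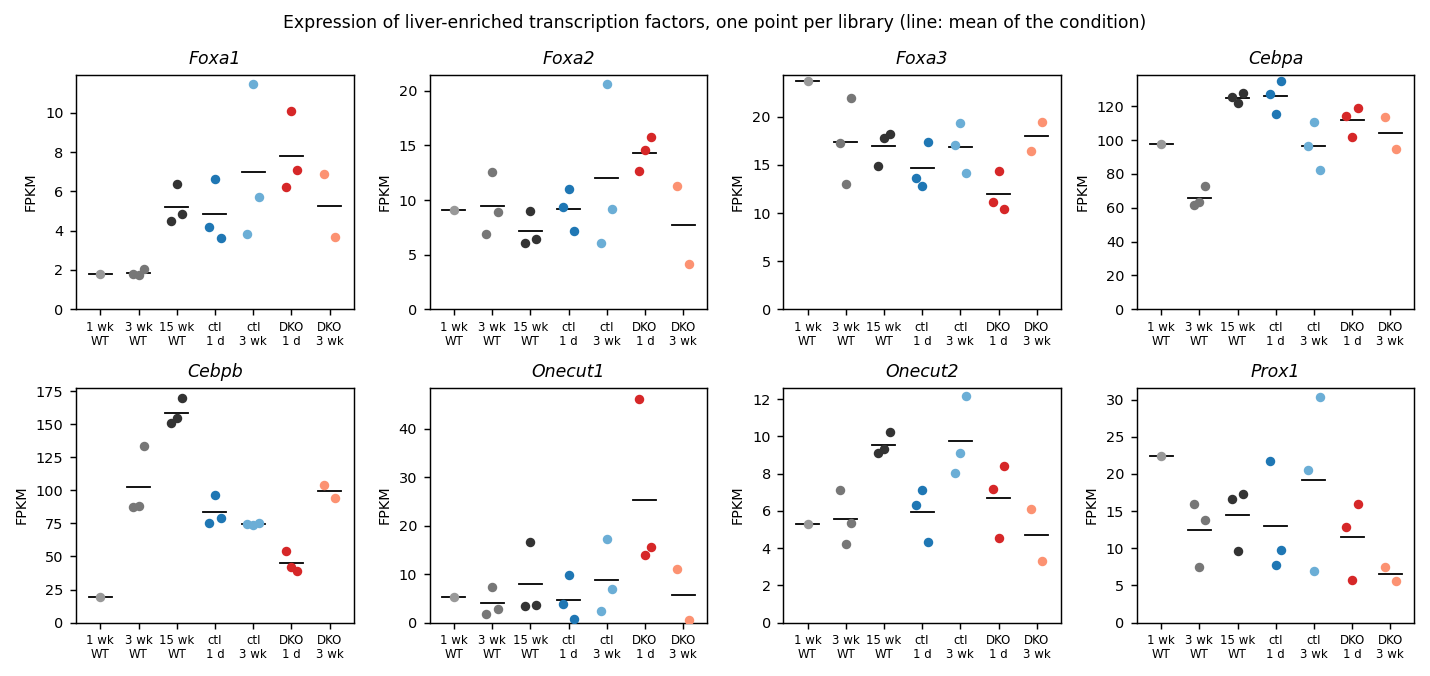
FPKM of the 8 genes (linear axis) in each library by condition, with points for libraries and a bar for the condition mean. The Cebpb points of DKO injected at 1 day (38.8 to 53.9) sit below every other point but that of the 1 week library (19.1), and the Onecut1 points scatter widely within conditions.

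The first comparison asks what early loss of the TET enzymes does to these genes, in DKO against control mice of 15 weeks, both injected at 1 day. Cebpb was at 53.9, 42.2 and 38.8 FPKM in the 3 libraries labelled DKO and at 75.6, 96.5 and 79.1 in the 3 controls. All DKO libraries were lower than all controls. The log2 difference was -0.89 (SE 0.16, 95% interval -1.24 to -0.53, limma adjusted p = 0.0028), a ratio of 0.54. It was the 1 of 8 genes called, where 20% of the genes tested were called (2228 of 11166, of which 483 were higher and 1745 lower, or 1448 and 1323 after each library was rescaled by the median of all genes, whose difference was -0.11). The Cebpb difference passed the threshold in each of the 10 alternatives, at -1.02 to -0.75. In the same libraries summed leukocyte markers were at 2.30 to 4.04 FPKM in DKO and 5.05 to 8.73 in controls (1 of 6 called, lower), and erythroid markers at 23.1 to 25.0 and 64.3 to 80.3 (1 of 12 table entries called, lower), and their part was not tested.

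Onecut1 was at 46.2, 14.0 and 15.6 FPKM in the DKO libraries and at 3.73, 9.76 and 0.714 in the controls. The groups did not overlap, but the spread within them was wide, and the difference of 2.36 (SE 0.91, 95% interval 0.41 to 4.31) did not pass (limma adjusted p = 0.082). Without control replicate 2 it was 3.00 with an adjusted p of 0.047. Foxa2, the forkhead factor of early liver and glucose metabolism, was also higher in each DKO library (12.7, 14.5 and 15.8 against 9.40, 11 and 7.12), by 0.61 (SE 0.37, limma adjusted p = 0.27). Foxa1, its close partner, overlapped between groups, at 6.21, 10.1 and 7.10 against 4.21, 6.65 and 3.65 (0.60, SE 0.31, limma adjusted p = 0.18). For Foxa3, a forkhead factor active in glucose and lipid metabolism, Cebpa, Onecut2 and Prox1 the differences lay between -0.27 and 0.14 with adjusted p of 0.33 to 0.89.

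In mice injected at 3 weeks none of the 8 genes passed the test, where 5.25% of all genes did (586, with 101 higher and 485 lower, or 802 and 421 after rescaling). Cebpb was at 104 and 94.3 FPKM in the DKO libraries and at 74.5, 73.9 and 75.0 in the controls, so here both DKO libraries were higher (0.41, SE 0.18, limma adjusted p = 0.18). Onecut2, which binds much the same sites as HNF6, was at 6.08 and 3.28 against 8.05, 9.10 and 12.2, without overlap (-0.95, SE 0.28, limma adjusted p = 0.061). Prox1, a homeobox factor of hepatoblast migration and lipid metabolism, was at 7.45 and 5.55 against 20.5, 6.91 and 30.4, with overlap (-1.23, SE 0.57, limma adjusted p = 0.19). For Onecut2 and Prox1 the highest control was replicate 3, the library with Xist and no Y-linked transcripts, while both DKO libraries had the reverse. The part of sex was not tested. At an unadjusted p under 0.05 there were 2866 genes, and the 2 DKO libraries of Onecut1 (11 and 0.472) spanned most of its range. Summed endothelial markers were at 11.5 to 24 FPKM in these DKO libraries and 3.99 to 10.8 in their controls (1 of 7 called, higher), and their part was not tested.

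The effect of the deletion on Cebpb differed between injection times, by -1.30 on the log2 scale (SE 0.25, limma adjusted p = 0.022), with a fall after injection at 1 day and higher values, not past the threshold, after 3 weeks. It was the 1 of 8 genes called, against 5.36% of all genes (599, with 260 positive and 339 negative, or 767 and 1392 after rescaling). The call rested on single libraries: the adjusted p was 0.054 without replicate 3 of the controls injected at 1 day and 0.096 without replicate 2 of DKO injected at 3 weeks. Onecut2 differed by 1.09 (SE 0.37, limma adjusted p = 0.079, or 0.042 after rescaling) and Onecut1 by 3.26 (SE 1.36, adjusted p = 0.13).

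**Figure D2:**
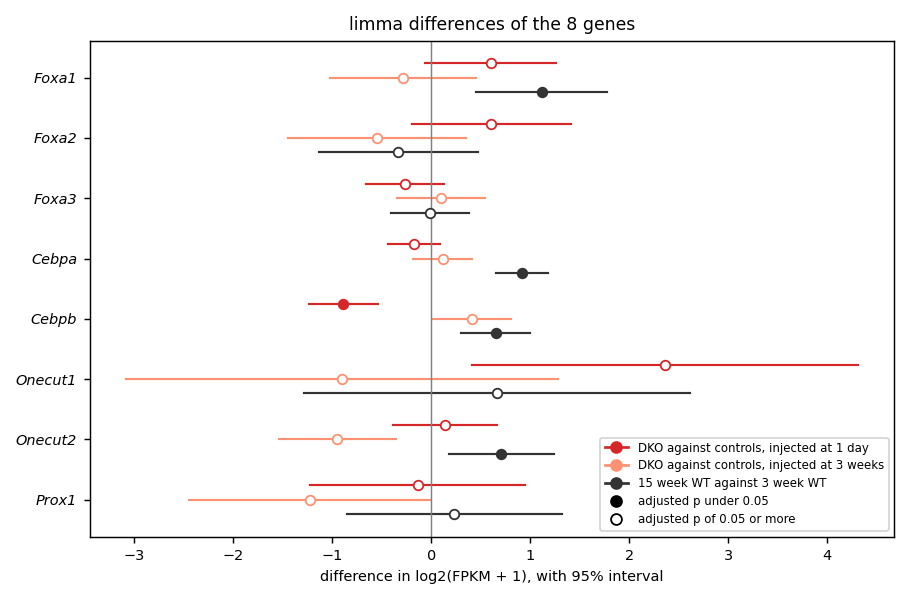
Log2 differences of the 8 genes with 95% intervals from limma in each comparison, with filled points for genes past an adjusted p of 0.05. Cebpb lies at -0.89 for DKO against control injected at 1 day and at 0.41 for injection at 3 weeks, and the Onecut1 intervals are the widest.

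Between 3 and 15 weeks 4 of the 8 genes were called, all higher at 15 weeks, against 33.3% of all genes (3719, with 2678 higher and 1041 lower, or 1676 and 2196 after rescaling, the median of all genes being 0.155 higher). Cebpa was at 61.3, 63.4 and 73.0 FPKM at 3 weeks and at 125, 122 and 128 at 15 weeks, and rose by 0.92 (SE 0.12, limma adjusted p = 8.7e-05). Foxa1 rose from 1.78, 1.74 and 2.05 to 4.48, 6.38 and 4.83 (1.11, SE 0.31, limma adjusted p = 0.013). For both genes every 15 week library was above every 3 week library. Cebpb rose from 87.1, 87.9 and 134 to 151, 155 and 170 (0.65, SE 0.16, limma adjusted p = 0.0082), and Onecut2 from 7.12, 4.22 and 5.37 to 9.13, 9.31 and 10.2 (0.71, SE 0.25, limma adjusted p = 0.041), again without overlap.

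Of these, Cebpa held in every alternative. Foxa1 missed the threshold without 15 week replicate 2 (adjusted p = 0.058), Cebpb when only these groups were fitted (0.053), and Onecut2 in 7 of 10 alternatives, rescaling included (0.10). Foxa2 (-0.33), Foxa3 (-0.01), Onecut1 (0.67, SE 0.91) and Prox1 (0.23) did not pass. The same libraries differed in markers of other cells, whose part was not tested: 7 of 7 endothelial and 7 of 7 cell cycle genes and 5 of 6 leukocyte genes were lower at 15 weeks. The summed endothelial markers were 13.4 to 23.3 FPKM at 3 weeks and 2.64 to 5.65 at 15 weeks, against hepatocyte markers of 12920 to 18674 and 13434 to 14925. These hepatocyte sums include Serpina1a, which was far lower at 15 weeks.

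The 1 week condition has 1 library and no test. A gene was called there if every 15 week library was 1 log2 unit or more away in the same direction, which held for 14.4% of all genes. Cebpb was the 1 of 8 called, at 19.1 FPKM at 1 week and 2.99 log2 units higher at 15 weeks. Foxa1 at 1.80 was near its 3 week level. Cebpa at 97.5 lay above the 3 week libraries, and Foxa3 at 23.7 was the highest of all 18. This library also had erythroid markers of 1850 FPKM and cell cycle genes of 59.0, against at most 80.3 and 12.5 in the others, and cholangiocyte markers of 136 against 21.0 to 21.6 at 15 weeks, whose part was not tested.

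Cebpb was also apart in the 2 kinds of 15 week WT mice, without passing the test. It was at 151, 155 and 170 FPKM in uninjected mice and at 75.6, 96.5 and 79.1 in controls injected at 1 day, without overlap. The difference of -0.92 (SE 0.16) was of the size of the DKO effect, with a limma adjusted p of 0.0505, and 0.038 after rescaling. None of the 8 genes and 0% of all genes were called by limma here, with 855 genes at an unadjusted p under 0.05. Summed isolation stress genes, which include immediate early genes, were at 876 to 1509 FPKM in the uninjected mice and at 578 to 747 in these controls, with a median difference of -0.79 and 0 of 12 called, and their part was not tested. In DKO injected at 1 day against its controls that sum was 442 to 892 against 578 to 747, with overlap and 0 of 12 called.

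Other hepatocyte transcription factors were read from a list of 46, of which 42 were tested. In DKO injected at 1 day 12 of 42 were lower and 0 higher, where 20% of all genes were called, with a median of -0.44 against -0.11 for all genes and 0 for the 8 genes described here. The largest falls were those of the drug receptor gene Nr1i3 (-3.48), Cebpe (-1.94), Tbx3 (-1.72) and Cebpd (-1.20). In DKO injected at 3 weeks, where 5.25% of all genes were called, 1 was higher, the clock gene Dbp (3.28), and 4 were lower, with Stat5b (-0.82) and Nr5a2 (-0.69) among them. Between 3 and 15 weeks 10 rose and 8 fell, against 33.3% of all genes called, led by Cux2 (-3.81), Nr1d1 (2.84), Dbp (2.51) and Cebpe (2.18).

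Among 20 textbook target genes of the factors, 1 was higher and 1 lower in DKO injected at 1 day, below the 20% of all genes called. They were Igfbp1 (1.33), an insulin-regulated binding protein and a classical FOXA target, and Gys2 (-0.76), the liver glycogen synthase. In DKO injected at 3 weeks 0 of 20 were called, against 2866 of all genes at an unadjusted p under 0.05 and 586 called by limma. Between 3 and 15 weeks 6 rose and 2 fell, near the 33.3% of all genes, including the acute-phase gene Orm1 (3.35), Apob (0.97), Gys2 (0.92) and Igfbp1 (-1.56). The other fall was that of Shbg (-0.17), a gene near the floor, at 0.103 to 0.143 FPKM at 3 weeks and 0 at 15 weeks.

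The scatter of Onecut1 was compared with that of the other genes. Over the 17 libraries of conditions with more than 1, deviations from the condition mean (log2 scale) of Onecut1 had a correlation of 0.82 with Foxa2 and 0.68 with Foxa1 but -0.35 with Foxa3 and -0.30 with Prox1, as a description of libraries that share preparation and depth. The library highest in Onecut1 was also highest in Foxa2 in 5 of 6 conditions, in Foxa1 in 4 and in Foxa3 in 1, and lowest in Prox1 in 4 and in Foxa3 in 3. Over all 18 libraries the genes most like Onecut1 were B4galt1 (r = 0.87) and Foxa2 (0.81). Those most like Cebpb were Gde1 (0.91), Slc16a10 and Prodh, and C8a (0.92) was most like Cebpa.

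DNA methylation was next followed at the 8 loci. In WGBS, 1006 tiles of 200 bp had values in all 3 libraries, with means of 53.5% in newborn, 46.1% in adult WT and 59.1% in DKO. Of these, 86 (8.55%) were at least 35 points lower in adult than newborn WT, against 3.27% of tiles at all tested genes and 1.63% of the genome, and 2 were higher. In DKO 152 tiles (15.1%) exceeded adult WT by 35 points or more, against 4.72% and 1.98%, and 1 was lower. These are single libraries without coverage, so no test was made.

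Of the 86 tiles with lower methylation in the adult, 77 were also at least 35 points higher in DKO, 71 had DKO values within 20 points of newborn and 53 were at or above newborn. The same adult library enters both differences, so part of this overlap follows from how the tiles were chosen. The matching share over tiles at all tested genes is not given here, so the overlap is no finding about these loci. The 152 tiles higher in DKO were not all of that kind: 25 were under 20% in newborn WT already. Of all 1006 tiles, 253 were under 20% in all 3 libraries. By place, 55 of the 86 lay in introns, 19 downstream, 4 upstream, 5 in coding exons and 3 in untranslated regions.

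Cebpb had the highest share. There 12 of 49 tiles (24.5%) were lower in adult than newborn WT and 13 (26.5%) higher in DKO, and the locus means were 43.2%, 24.8% and 45.2% in newborn, adult and DKO. Of the 12, 8 lay in 3 runs outside the gene. At chr2:167512001-167512600, upstream, the means were 71.8%, 13.6% and 80.8%. At chr2:167517001-167517600 they were 70.9%, 3.9% and 79.8%, and at chr2:167517801-167518200, which holds the sequence printed above, 72.9%, 0.0% and 66.5%.

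Foxa3 came next, with 12 of 81 tiles (14.8%) lower in the adult and 17 (21.0%) higher in DKO. Its longest run, 6 tiles at chr7:19603001-19604200 in an intron, had 84.1%, 22.0% and 80.1%, and surrounds the HNF6 site printed above. A second run at chr7:19604801-19605600 had 66.0%, 17.5% and 80.5%. Onecut1 had 16 of 161 tiles lower in the adult, with a run of 75.3%, 14.2% and 82.3% at chr9:74737001-74737600 at its 3′ end. Prox1, with 18 of 251, had a run of 85.2%, 17.0% and 84.2% at chr1:191972001-191972400 in an intron. Onecut2 had 19 of 269, Foxa2 4 of 66, Cebpa 3 of 53 and Foxa1 2 of 76, the lowest share at 2.63%.

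**Figure D3:**
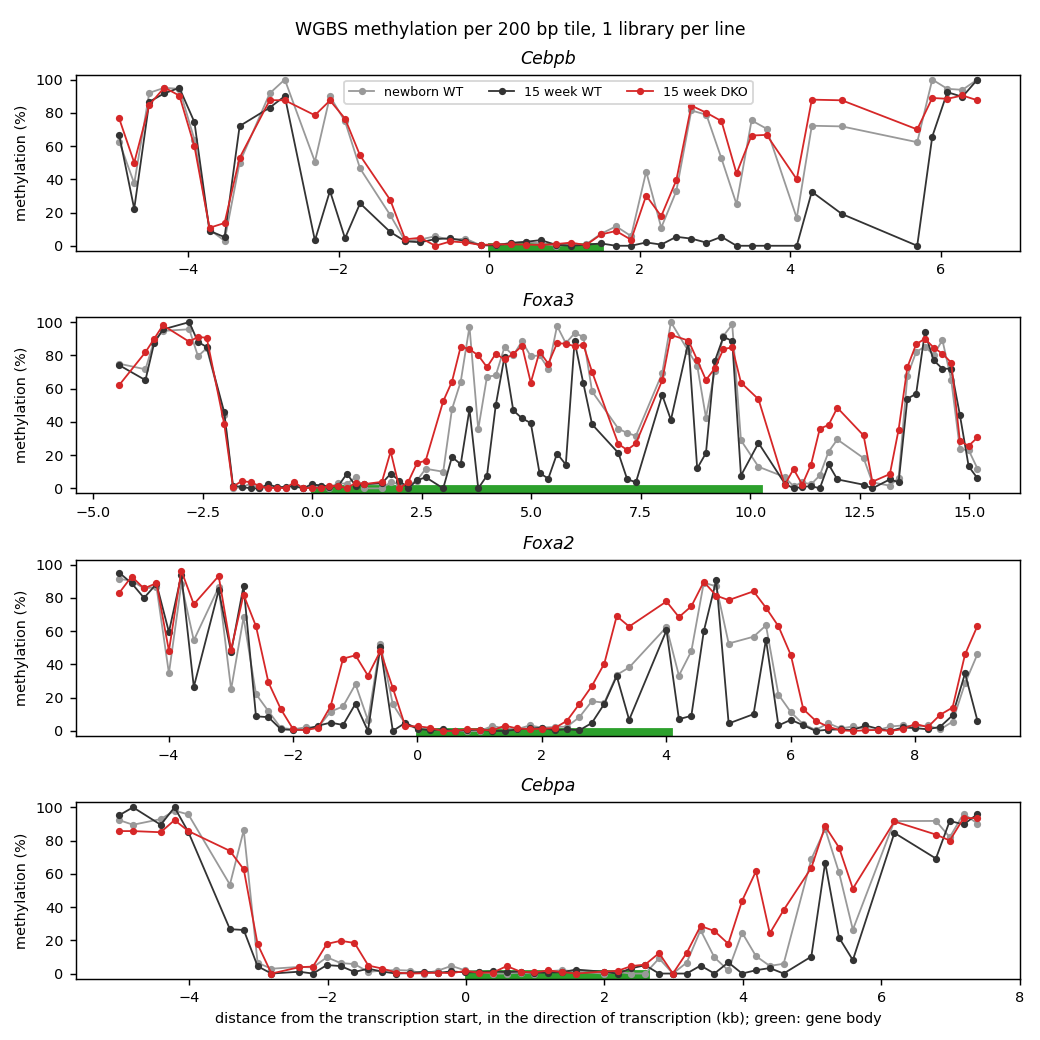
WGBS methylation (percent) of 200 bp tiles against distance from the gene start (kb) at Cebpb, Foxa3, Foxa2 and Cebpa in newborn WT, adult WT and DKO. At Cebpb the adult line drops to 3.9% and 0.0% in the downstream runs where newborn and DKO are at 66.5% to 79.8%.

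The tiles that lost methylation were set beside the peaks. Of the 86, 91.9% lay in an H3K4me1 region of WT, against 68.5% of the 667 other methylated tiles and 44.3% of the 253 low ones. H3K27ac covered 57.0%, 36.3% and 98.0%, 5hmC 36.0%, 29.1% and 11.9%, ATAC peaks 5.81%, 1.8% and 14.6%, and HNF6 peaks 6.98%, 3.3% and 14.6%. The lost tiles thus lay in H3K4me1 regions more often than the other groups did. This is a count without a test, and neighbouring tiles are not independent.

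RRBS gave replicates for part of this. Of 304711 tested 100 bp tiles 211 lay at the 8 loci. In DKO injected at 1 day 20 of them (9.48%) passed limma at an adjusted p of 0.05 with at least 35 points, against 1.37% of all tiles (4172, of which 4023 were higher), and all 20 were higher. By gene they were 4 at Cebpb, 3 each at Foxa3, Onecut1, Onecut2 and Prox1, 2 each at Foxa2 and Cebpa and 0 at Foxa1. The DKO mice were at 26.5% to 95.7% in these tiles and the 6 injected controls at 0% to 45.7%. Of the 20, 9 lay in introns, 5 in coding exons, 3 upstream and 3 downstream. All 20 were in H3K4me1 regions and 19 in H3K27ac regions of WT, 2 in an HNF6 peak and 0 in a WT ATAC peak. The share of the other RRBS tiles in such regions is not given here. Both marks were common among the WGBS tiles at these loci, and several of the 20 tiles adjoin each other.

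The Cebpb tiles downstream of the gene had the largest differences. At chr2:167518001-167518100 the DKO mice injected at 1 day had 94.7% and 92.7%, and their controls 0.7%, 0% and 0% (93.5 points, SE 2.87, limma adjusted p = 2.9e-07). DKO mice injected at 3 weeks had 10.9% and 7.6%, 3 week WT 18.6% and 27.3%, InsR KO 0% and 5.0%, cultures 77.4% and 77.4%, neutrophils 74.1% and fat 47.9%. Among the RRBS hepatocytes taken directly from mice, those of DKO injected at 1 day were far above the rest. The highest value of the rest was 27.3%, and no newborn mice were among them. At the adjacent RRBS tiles the 2 DKO mice injected at 3 weeks were at 39.2% and 35.7% and at 25.3% and 5.8%. In WGBS the place of the first tile was at 70.4% in newborn WT, 0.0% in adult WT and 66.7% in DKO. A high level there was thus also that of newborn WT.

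Upstream of Cebpb, at chr2:167512401-167512500, both kinds of DKO were at similarly high values, unlike at the downstream tiles. Mice injected at 1 day had 74.2% and 73.8%, those injected at 3 weeks 67.7% and 86.2%, and 3 week WT 65.4% and 75.6%, against 7.9% to 25.3% in the 6 controls. The difference was 58.7 points (SE 8.72, limma adjusted p = 0.0059) after injection at 1 day and 59.5 (SE 8.72, limma adjusted p = 0.017) at 3 weeks. The intron tile of Foxa3 at chr7:19603101-19603200 was alike, with 70.9% and 69.6%, 88.1% and 93.6%, and 75.7% and 91.9% in the same 3 groups against 2.3% to 33.3% in the controls. In the coding stretch of Foxa3 printed above, the tile at chr7:19600001-19600100 had 69.3% and 75.5%, 72.8% and 56.9%, and 40.1% and 57.2%, with controls at 0.8% to 11.7%.

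In mice injected at 3 weeks 7 of 211 tiles (3.32%) were called, all higher, against 0.389% of all tiles. They were 3 at Foxa3, 2 at Prox1 and 1 each at Cebpb and Onecut1. In the 20 tiles above, which were chosen on the mice injected at 1 day and their controls, these mice ran from 0% to 93.6%. Between 1 and 9 member tiles were called in the alternatives, and 1 to 4 when 1 mouse was left out.

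The effect of the deletion differed between injection times at 3 of 211 tiles (1.42%, against 0.199% of all tiles), in a test added after the data were seen. They were the Cebpb tile at chr2:167518001-167518100 (85.7 points, SE 4.05, limma adjusted p = 1.3e-05) and a pair in an intron of Onecut2, 5.4 and 5.6 kb from its start (38.4 points, SE 4.13, adjusted p = 0.0030, and 45.6 points, SE 2.63, adjusted p = 5.2e-05). At the Onecut2 pair all 6 controls were at 0% and 3 week WT at 0% to 6.9%. Newborn WGBS was at 2.8% and 2.0%. Mice labelled DKO injected at 1 day had 35.3% to 51.4% and DKO WGBS 45.2% and 47.2%, while those injected at 3 weeks had 0% to 3.9%. At this pair the early DKO values were thus above newborn WT, not only above the adult.

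Young WT mice were compared with the adult controls in the same way. By the shared animal numbers, the 3 week WT mice had Xist and almost no Y-linked transcripts in the expression libraries, the reverse of most controls. For most controls sex therefore differed along with age, and the 3 week mice were also uninjected. The parts of sex and injection were not tested. Of the 211 tiles, 4 (1.9%) were higher in 3 week WT than in the adult injected controls, against 0.281% of all tiles: the 3 Foxa3 tiles and the upstream Cebpb tile. Control replicate 3 injected at 3 weeks, whose expression library also had Xist, was at 12.2%, 3.5%, 33.3% and 19.4% in them. The 3 week mice were at 40.1% to 91.9%. In InsR KO mice 2 of 211 tiles (0.948%) were higher than in controls injected at 1 day, against 0.415%, the Foxa3 intron tile (56.2% and 86.0%, difference 68.2 points, limma adjusted p = 0.022) and a tile upstream of Cebpa at chr7:35900901-35901000 (80% and 52.8%, 53.3 points, adjusted p = 0.036). At that Cebpa tile DKO mice injected at 1 day had 73.0% and 76.4% and the 6 controls 4.9% to 17.3%. Over alternatives the member counts for InsR KO ran from 0 to 5.

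**Figure D4:**
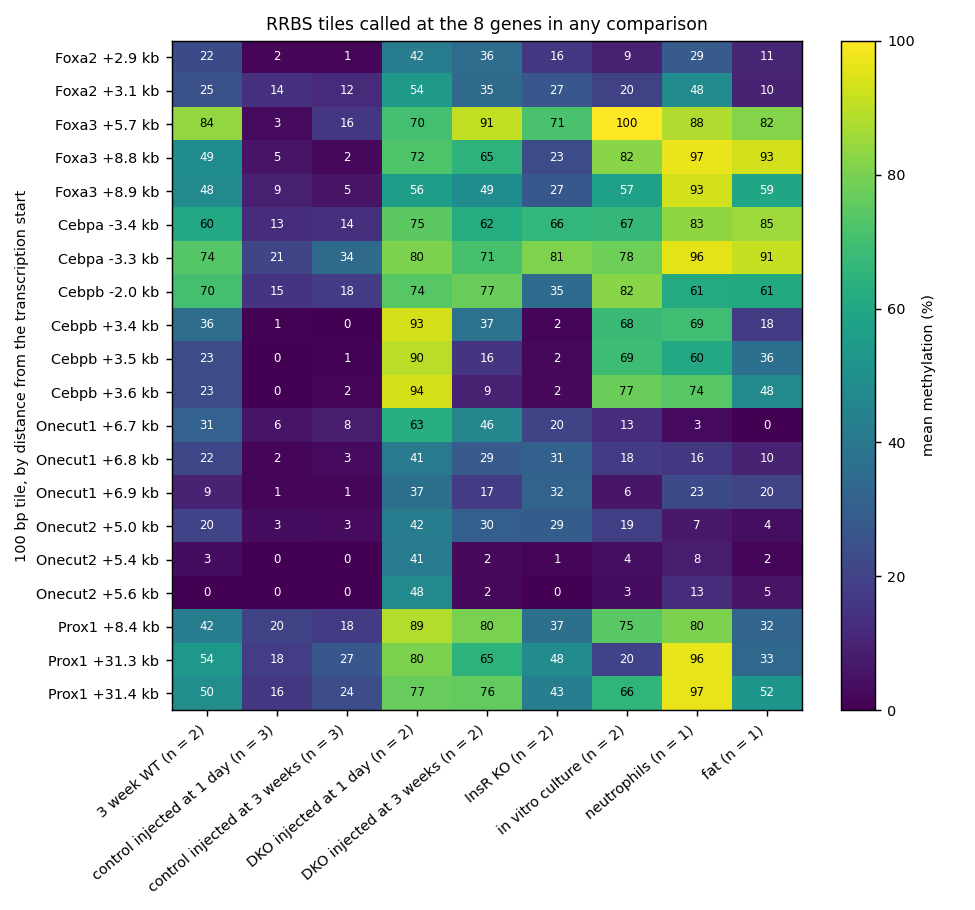
RRBS methylation (percent, colour) of the 20 tiles that passed the test in DKO injected at 1 day (rows) as means in 9 sample groups (columns). The control columns are low in all rows, and the last Cebpb downstream row and the last 2 Onecut2 rows have means of 93.7%, 40.9% and 47.6% after injection at 1 day and 9.2%, 2.4% and 2.0% after 3 weeks.

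Peaks were present at these genes in nearly every assay, which is the rule for expressed genes. All 8 had a peak within 5 kb in each ATAC library (92.8% of tested genes), in both H3K27ac (90.2%) and both H3K4me1 libraries (94.6%) and in the 5hmC library (91%). An HNF6 peak in all 4 libraries was less general, with 6 of 8 genes against 15.1% of tested genes. The genes without were Cebpa and Cebpb. The Cebpb locus had 0, 1, 1 and 2 HNF6 peaks in the 4 libraries.

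ATAC peaks merged into 36 sites, of which 13 were in all 4 libraries, 5 in both WT and no DKO library and 2 in both DKO and no WT library. The share of such sites over the genome is not given here, so these counts are a description and no finding about these genes. The 5 lay at Foxa1, Foxa2, Onecut1, Onecut2 and Prox1. That of Onecut1 was at chr9:74737249-74737404 in its 3′ run of lost tiles, with 4.26 and 4.43 normalized tags in WT and methylation of 71.7%, 4.2% and 80.5% in newborn, adult and DKO WGBS. That of Prox1 (chr1:191949186-191949390) had 5.07 and 4.80 tags and 18.6%, 5.2% and 76.6%, but DKO replicate 2 had a peak of 3.93 tags beside it at chr1:191949439-191949581, so its place among the 5 depends on how peaks are merged. At Onecut2, 37.7 kb from the start, the values were 2.91 and 3.97 tags and 43.1%, 0.0% and 63.6%. The site of Foxa2, at its start (chr2:147872703-147872845), had 17.4 and 9.32 tags and was unmethylated in each WGBS library, at 2.7%, 3.1% and 2.9%. The site in the coding exon of Foxa1 (chr12:58644287-58644440) had 17.0 and 19.7 tags and 4.3%, 4.3% and 16.2%. Of the 5 sites, 3 were thus above 60% in DKO and 2 were low, and a peak list does not say how far below the limit the DKO libraries were.

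HNF6 peaks merged into 29 sites, of which 10 were in all 4 libraries: 3 at Onecut2, 2 each at Foxa2, Foxa3 and Prox1 and 1 at Foxa1. No site was in both WT libraries and neither DKO library, and 9 were in DKO replicate 2 alone. That library stands apart, with 34665 peaks in the genome and 5.58% of tags in peaks against 4387 to 9355 peaks and 0.33% to 1.05% in the other 3. Without it the peaks at the 8 loci fell from 75 to 47. The letters ATCAAT or ATCGAT, on either strand, were in 9 of the 10 sites and in 20 of 29, searched over the whole merged site. They were in 89.4% of the peaks of WT replicate 1 and in 7.91% of 47639 ATAC peaks, cut to 185 bp. The merged sites are wider than that, so the shares are not at the same width. The FOXA letters TGTTTAC were in 2 of the 10, and in 5.01% and 4.51% of those peak sets.

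Tag counts at the shared sites followed the library. At the Foxa3 site printed above, WT had 15.7 and 15.9 tags and DKO 14.6 and 36.5. This site holds 0 CG, so it has no methylation value of its own. The 200 bp WGBS tiles that overlap it, and extend past it, were at 84.8% in newborn, 13.4% in adult and 81.1% in DKO. At the Foxa2 site upstream of the start the values were 7.04 and 16.5 in WT and 20.2 and 67.7 in DKO, and at the Foxa1 site 7.36 and 12.2 against 7.10 and 33.5. DKO replicate 2 was highest at 10 of 10 sites, 2.22 to 9.62 times WT replicate 1, which was lowest at 8. DKO replicate 1 lay between the WT libraries at 5 of 10 and outside their range at the other 5.

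Onecut2 held the strongest shared site, 8.9 kb from its start, with 17.0 and 29.4 tags in WT and 28.8 and 100.5 in DKO. The site 5.6 kb from its start, which holds the pair of tiles named above, had 6.72 and 14.7 against 9.34 and 26.0. WGBS at this site was 2.4% in newborn, 0.3% in adult and 46.2% in DKO. At Prox1 the site 22.6 kb from the start, where methylation was 61.2%, 14.0% and 79.9%, had 7.04 and 14.1 against 7.47 and 15.6 tags. The sites were chosen for a peak in every library, so a peak in DKO here is no finding, and the ChIP labels give no age or injection time.

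**Figure D5:**
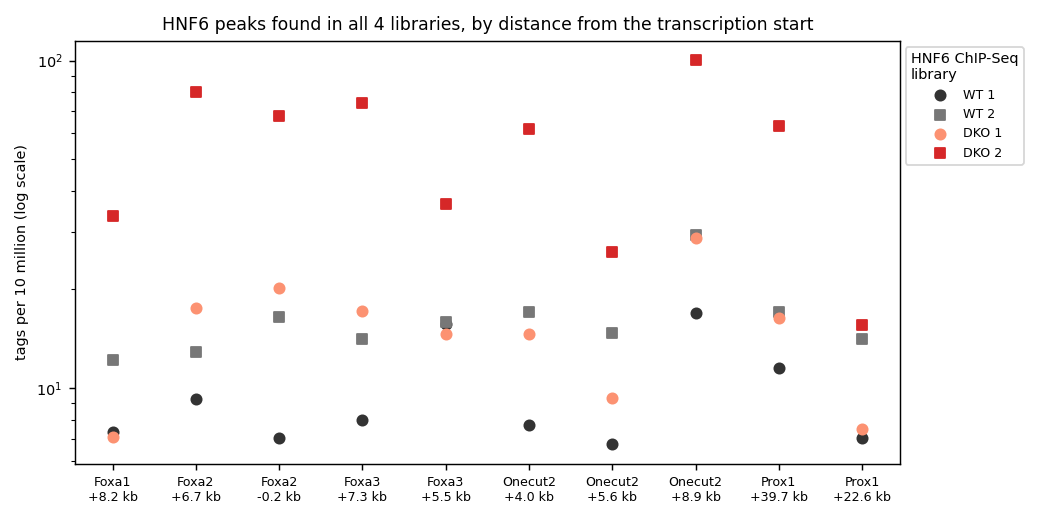
Normalized HNF6 tags (log axis) at the 10 sites found in all 4 libraries, with 1 point per library. DKO replicate 2 is the highest point at each site, and DKO replicate 1 lies between the WT points at 5 of 10.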

How the data were processed

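The authors aligned RNA reads with TopHat2 and made FPKM values per gene with Cufflinks. They aligned bisulfite reads to mm9 with BSMAP (version 2.74) and deposited fractions of methylated readings, for RRBS per 100 bp tile (coverage minimum 10 CpGs) and for WGBS per 200 bp tile (minimum 15 CpGs). Neither gives coverage or read counts, so depth is unknown and no interval was calculated. The authors called peaks per library with HOMER, and the file headers give the peak score and the tag signal, which is scaled to a common library total (from 13437081 to 31259057 tags before scaling for HNF6). Fractions were multiplied to percent.

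Conditions were read from the sample labels. RRBS columns that carry an animal number were assigned where the expression table has that number, a link that the labels do not state, and 49 sample columns were not used, since no single condition could be assigned. Genes reaching a condition mean of 1 FPKM entered limma (version 3.58.1, R 4.3.3) as log2(FPKM + 1), a scale that understates changes of low genes. The 18 libraries shared a model with a trended prior variance, and p-values were adjusted over all genes by the method of Benjamini and Hochberg. DKO were compared with controls injected at the same time. RRBS tiles with at least 2 values in each compared group were fitted in the same way on percent, with 14 samples, a limit of 35 points and an adjusted p of 0.05. WGBS limits were 35 points. Replicates carry separate animal numbers, in table order. The scripts were tested on simulated data. Alternatives were another pseudocount, no filter, rescaling, other limits, M values, fewer groups in the fit and leaving out each library.

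The 8 genes, the gene lists and the tests were chosen with earlier results of these data known. Named genes of a list are those past the threshold with the largest change. Sequences and annotation are from NCBIM37. Cebpb shares 909 bp with antisense Tmem189 and Onecut1 lies within same-strand Gm16551, and whether counting used strand is not given in the sources used here.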

Additional observations from a re-analysis of the deposited data

Results flagged for a closer look

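The effect of the deletion differed between injection at 1 day and at 3 weeks, by a test of that difference in limma, in 4 results. For Cebpb expression the difference of the effects was -1.30 log2 units. For the tile downstream of Cebpb, chr2:167518001-167518100, it was 85.7 points of methylation. For the pair of intron tiles 5.4 and 5.6 kb from the start of Onecut2 it was 38.4 and 45.6 points. The tile upstream of Cebpb at chr2:167512401-167512500, with 74.2% and 73.8% after injection at 1 day and 67.7% and 86.2% after 3 weeks, was not called in that test.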

How the results depend on the processing

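With only the compared groups in the fit, 1339 genes were called for DKO injected at 1 day, 28 for DKO injected at 3 weeks, 116 for the difference between injection times and 1 for injected against uninjected controls. Without the filter on low values the last 3 were 370, 128 and 2, and after rescaling 1223, 2159 and 29. Leaving out 1 library gave 884 to 2303, 53 to 411, 30 to 1740 and 0 to 6 genes, where a condition left with 1 library is assumed to vary like the others. A limit of 0.5 log2 units gave 3546 genes for 15 weeks against 1 week. RRBS tiles called with fewer groups were 292 for DKO injected at 3 weeks, 6 for InsR KO and 921 for the difference between injection times, and with M values 551 for InsR KO, 571 for 3 week WT and 129 for the difference. Leaving out 1 mouse gave 650 to 1031, 883 to 2387, 521 to 1690 and 4.2e+02 to 950 tiles for DKO injected at 3 weeks, InsR KO, 3 week WT and the difference. At the 8 loci, WGBS tiles lower in the adult were 139 and 37 at limits of 25 and 50 points, those higher in DKO 84 at 50, ATAC peaks 50 within the genes alone, HNF6 peaks 47 without DKO replicate 2, histone regions 76 and 5hmC regions 28 among the regions with signal above the median.

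Of 480 values of the 8 genes under alternatives, 438 kept direction and side of the threshold, 11 lost and 8 gained the threshold, and 23 changed sign. Prox1 in DKO injected at 1 day was 0.0005 after rescaling, and its leave-one-out range was -0.41 to 0.27, with -0.041 to 0.36 for Onecut2. In DKO injected at 3 weeks the ranges were -0.67 to 0.090 for Foxa1, -1.17 to 0.076 for Foxa2, -0.021 to 0.21 for Foxa3, -0.017 to 0.25 for Cebpa and -2.42 to 0.61 for Onecut1. For 15 against 3 weeks they were -0.20 to 0.16 for Foxa3 and -0.069 to 0.48 for Prox1. For injected against uninjected mice they were -0.33 to 0.032 for Foxa1, -0.042 to 0.071 for Cebpa, -1.31 to 0.012 for Onecut1 and -0.64 to 0.045 for Prox1, and for 15 weeks against 1 week -0.51 to 0.49 for Onecut1. None of these had passed the test. Onecut2 in the difference between injection times had an adjusted p of 0.031 in limma without DKO replicate 2 injected at 1 day. Member RRBS tiles called ran from 15 to 26 for DKO injected at 1 day and from 2 to 7 for the difference between injection times. The cause was not tested. No paired analysis was possible because the columns carry animal numbers only and the peaks gave no test. Depth is unknown for FPKM and methylation, and libraries of DKO injected at 3 weeks number 2.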
